A study of Mus musculus with 405 samples.

Results

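A set of 11 libraries of a chemical screen was taken from cultures exposed to phenoxy acid or aryloxyphenoxypropionate herbicides, and is described here against the vehicle libraries of the screen. The libraries were chosen by name: the sample label had to begin with 2,4-D (which takes in 2,4-DB), Cloprop, Dichlorprop, MCPA, MCPB or Mecoprop, or to contain the ending "fop-". The rule found 11 of 393 libraries in the table of the screen, out of 405 samples in the series. They were 5 phenoxy acids at 10 µM (2,4-D, MCPA, 2,4-DB, Dichlorprop and Cloprop), 5 aryloxyphenoxypropionate esters at 10 µM (Clodinafop-propargyl, Fluazifop-P-butyl, Quizalofop-ethyl, Diclofop-methyl and Cyhalofop-butyl) and 1 such ester at 0.1 µM (Fluazifop-butyl). The rule matched no library of MCPB or Mecoprop, which are not analysed here.

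The study exposed mouse cortical cultures to environmental chemicals at concentrations that did not kill the cells and sequenced polyadenylated RNA, with the question of which chemicals change gene expression in like ways. By the sample labels the cultures came from embryos at day 15, where the study's methods give a slightly earlier day, of C57BL/6J dams mated to CAST/EiJ males. From day 3 in vitro the medium held 5-fluoro-2′-deoxyuridine and uridine triphosphate, which stop cell division. On day 7 in vitro the cells received 1 chemical or vehicle (dimethyl sulphoxide) for 24 h, and all groups used here shared this background, age and medium. The vehicle group held 49 libraries. Each of the 11 compounds had 1 library and thus no replicate of its own.

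Phenoxy acids are synthetic auxins: they act on the auxin receptors of broad-leaved plants, which animals lack, and are built of a chlorinated phenoxy ring with a short carboxylic acid chain. The aryloxyphenoxypropionates, or fops, carry a further aromatic ring, are sprayed as esters that are cleaved to the active acid, and inhibit the plastid acetyl-CoA carboxylase of grasses. Acetyl-CoA carboxylase makes malonyl-CoA, the first building block of fatty acid synthesis, and exists in animals as well. Chlorinated phenoxy acids and some fops are known as weak peroxisome proliferators in rodent liver, where ligands of the peroxisome proliferator-activated receptors (PPARs) raise genes of fatty acid oxidation and lipid droplets. Gene lists for these pathways, for sterol synthesis, xenobiotic response, stress, neuronal activity, thyroid hormone response and cell types were therefore examined.

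The deposited values are deviations of each gene from its own centre after batch correction, given here on the log2 scale, so they show differences and no levels. The depth of the screen libraries is unknown, and levels come from 3 vehicle libraries of a count table of the same series, with totals from 2778615 to 7833440 counts. In these, markers of neurons summed to 9340 to 9508 CPM (counts scaled to the total of the library), those of astrocytes to 908 to 967 CPM, and those of microglia to 48.7 to 58.7 CPM. Markers of the oligodendrocyte lineage (112 to 120 CPM, with Mag at 0) and of vessel wall and fibroblasts (112 to 135 CPM, with Cldn5 at 0) were also low. Those of microglia had the lowest sum of these lists. A gene was called where its adjusted p was under 0.05 over all 13304 genes.

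Taken as classes, the phenoxy acids and the fops did not move any gene past the threshold. For the 5 phenoxy acids against vehicle 0 of 13304 genes (0%) were called by limma, while 677 genes (5.09%) had an unadjusted p under 0.05, 301 above vehicle and 376 below. For the 5 fops at 10 µM the count was also 0 (0%), with 564 genes (4.24%) under an unadjusted 0.05. Both classes together gave 0 calls (0%) and 585 such genes, and the contrast of phenoxy acids with fops gave 0 calls (0%) and 697 such genes (5.24%). The p-values measure the spread between compounds of a class and between vehicle libraries, since no compound was repeated.

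The gene nearest to the threshold among the phenoxy acids was Zcchc24, a zinc finger gene. Its deviation was −0.32 with 2,4-D, −0.40 with MCPA, −0.46 with 2,4-DB, −0.89 with Dichlorprop and −0.04 with Cloprop, against −0.78 to 0.52 (median 0.10) in vehicle. The Dichlorprop value alone lay outside the vehicle range, and the class difference was −0.49 ± 0.11 (SE; adjusted p = 0.385, limma).

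Antxr2, an anthrax toxin receptor that binds matrix proteins, was the gene nearest to the threshold between the classes. Its deviations were −0.68, −0.57, −0.62, −0.99 and 0.21 with 2,4-D, MCPA, 2,4-DB, Dichlorprop and Cloprop. They were 0.54, 0.44, −0.13, 0.73 and 0.12 with Clodinafop-propargyl, Fluazifop-P-butyl, Quizalofop-ethyl, Diclofop-methyl and Cyhalofop-butyl. The classes overlapped through Cloprop, and the difference between them was −0.87 ± 0.20 (SE; adjusted p = 0.818, limma). With each of the 10 compounds left out in turn, it passed only without Cloprop, the only phenoxy acid with a positive deviation (−1.06, adjusted p = 0.037).

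Tpt1, which encodes a translationally controlled tumour protein and has near-identical processed copies that share its reads, also passed in the class when 1 compound was left out. The phenoxy acids differed from vehicle by −1.01 ± 0.26 (SE; adjusted p = 0.617, limma). Without MCPA, the phenoxy acid with the highest value, the difference was −1.40 (adjusted p = 0.0419).

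Compound by compound, each library was tested against the 49 vehicle libraries, on the assumption that the lone library varied as vehicle libraries do. Genes said below to be lowered or raised by a compound are those called under or above vehicle in its 1 library. Over the 282 chemicals with 1 library, 2647 of 13304 genes were called for exactly 1 chemical and 2798 for 2 or more. 2,4-D had 1 called gene (0.00752%), MCPA 10 (0.0752%), 2,4-DB 9 (0.0676%), Dichlorprop 8 (0.0601%) and Cloprop 6 (0.0451%). Among the fops, Clodinafop-propargyl had 4 (0.0301%), Fluazifop-P-butyl 1 (0.00752%), Quizalofop-ethyl 0 (0%), Diclofop-methyl 2 (0.0150%) and Cyhalofop-butyl 122 (0.917%), and Fluazifop-butyl at 0.1 µM had 4 (0.0301%). For Quizalofop-ethyl 674 genes (5.07%) had an unadjusted p under 0.05. The 236 other chemicals with 1 library at 10 µM had a median of 7 called genes (quartiles 2 and 12, highest 1242), and 9 of the 10 compounds at this dose had no more than 10. Cyhalofop-butyl had more than the upper quartile, and 15 of the other chemicals had more still.

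**Figure D1:**
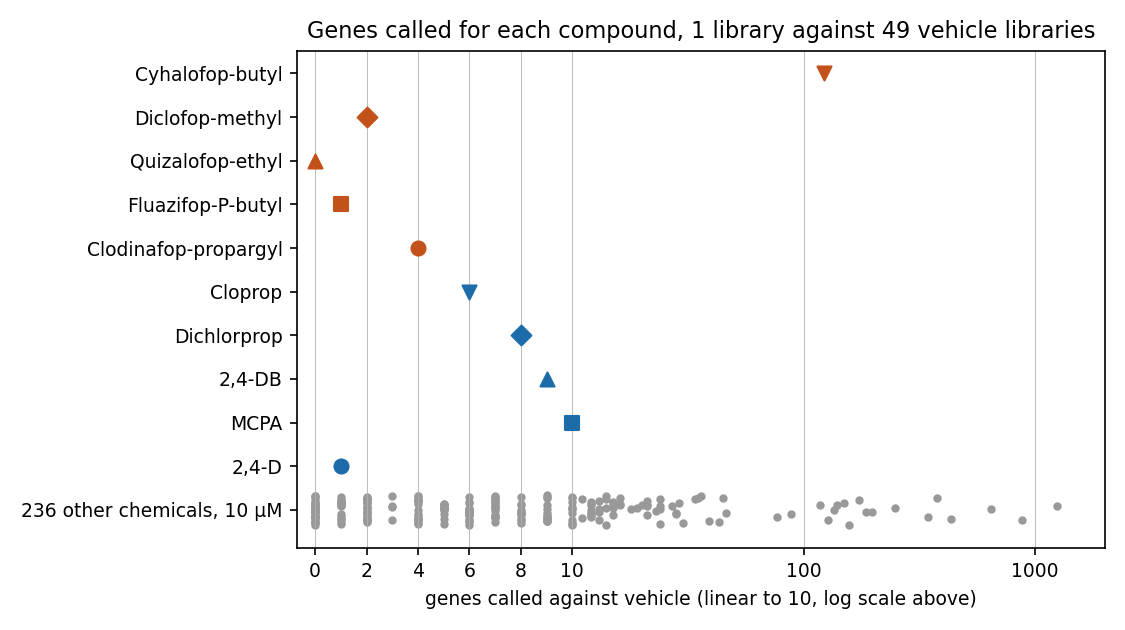
Number of genes called against 49 vehicle libraries (horizontal axis, linear to 10 and log above) for the 5 phenoxy acids (blue), the 5 fops at 10 µM (orange) and 236 other chemicals with 1 library at 10 µM (grey points, spread vertically). Cyhalofop-butyl, with 122 genes, stands apart from the other compounds, which have 0 to 10.

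The size of the whole profile did not set the compounds apart from other chemicals. The root mean square log2 difference from vehicle over all genes had a median of 0.39 over the 5 phenoxy acids and 0.38 over the 5 fops, against 0.40 over the 236 other chemicals. Of all values of the 10 compounds at 10 µM, 3.83% lay outside the range of the 49 vehicle libraries.

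With 2,4-D 1 gene was called. Hint3, a nucleotide hydrolase of the histidine triad family, had a deviation of −4.37 with 2,4-D, against −1.93 to 1.47 (median 0.00) in vehicle. The other phenoxy acids lay at −0.70 (MCPA), −1.14 (2,4-DB), 1.43 (Dichlorprop) and 1.21 (Cloprop), all inside the vehicle range. Hint3 fell by 4.28 ± 0.69 (SE; adjusted p = 0.0014, limma) and was called for none of the 281 other chemicals with 1 library.

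MCPA lowered 9 genes and raised 1. The largest falls were Gypc, a membrane glycoprotein of red cells (−3.31), Fam98c (−2.52; adjusted p = 0.0490, and 0.0787 with the spread of repeated chemicals added) and Ccdc151, which is needed for motile cilia (−2.46). Cep164, a protein of the distal appendages of the centriole, rose by 1.29 ± 0.26 (SE; adjusted p = 0.0234, limma), from a vehicle range of −0.56 to 0.57 to a deviation of 1.23. In the other 9 compounds at 10 µM Cep164 lay between −0.49 and 0.37. Dab2, an endocytic adaptor, fell by 1.73 ± 0.32 (adjusted p = 0.0145).

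2,4-DB lowered 9 genes and raised none. The largest fall was that of Lemd1 (−3.82), followed by 4930599N23Rik (−3.44) and Drd2, the dopamine D2 receptor (−3.22 ± 0.68, SE; adjusted p = 0.0283, limma). The deviation of Drd2 was −2.94 with 2,4-DB and −1.90 to 1.63 (median 0.38) in vehicle. The other compounds at 10 µM lay between −1.48 (Fluazifop-P-butyl) and 0.76 (Cyhalofop-butyl), inside that range. Meis1, a homeobox transcription factor, fell by 2.23 and Cntnap3, a contactin-associated neuronal surface protein, by 1.98.

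Cloprop lowered 6 genes and raised none. E130114P18Rik fell most, to a deviation of −4.45 against −1.94 to 1.61 in vehicle, followed by Apip, an enzyme of methionine salvage (difference −3.68), and Tmem179b (−3.15). Mab21l1, a developmental gene of the eye, fell by 2.86 (adjusted p = 0.0035, limma) and was called for no other chemical with 1 library.

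Among the fops, Clodinafop-propargyl lowered 4 genes, of which 1500012F01Rik fell by 3.62 ± 0.49 (SE; adjusted p = 2.1e-05, limma), Dnajc4, a co-chaperone, differed by −3.32 and Tbc1d7, a subunit of the TSC complex that restrains mTOR, by −3.12. 1500012F01Rik had a deviation of −3.79 with Clodinafop-propargyl and of −2.18 with Quizalofop-ethyl, both below the lowest vehicle library (−1.04). The other 8 compounds at 10 µM lay between −0.84 and 0.55. The gene lies on chromosome 2 from 166888434 to 166891362 on the plus strand (mm9). Fluazifop-P-butyl lowered Mir6369 (difference −4.05, adjusted p = 0.0206; 0.310 with the spread of repeated chemicals added), an entry for a microRNA locus whose value in polyadenylated RNA is not that of the mature microRNA. It was also called for 8 of 281 other chemicals.

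Diclofop-methyl lowered 2 genes, Etfb and Uqcrq. Etfb, a subunit of the electron transfer flavoprotein that takes electrons from fatty acid oxidation, had a deviation of −3.99 against −2.62 to 1.32 (median −0.14) in vehicle and fell by 3.79 ± 0.72 (SE; adjusted p = 0.0192, limma). Its partner subunit Etfa lay at −0.38, inside its vehicle range of −3.13 to 2.38. Uqcrq, a subunit of respiratory complex III, had a deviation of −0.90 against −0.31 to 0.29 in vehicle and fell by 0.91 ± 0.14 (adjusted p = 3.0e-04). The value of Uqcrq with MCPA (−0.36) was also below the vehicle range and was not called. Uqcrq was called for 12 of the 281 other chemicals, and Etfb for none. At a threshold of 0.01 Diclofop-methyl had 1 called gene, and with the spread of repeated chemicals added 10, among them both of these.

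Apart from Tpt1, no gene was called for more than 1 of the 11 compounds. For 7 of the compounds at 10 µM the called genes had a median level of 2.64 to 5.40 CPM in the count libraries, against 24.4 CPM over all genes of the screen. The median was above that of all genes for the 2 genes of Diclofop-methyl (42.1 CPM) and for those of Cyhalofop-butyl (41.2 CPM). The part that low levels had in the calls of the 7 compounds was not tested.

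**Figure D2:**
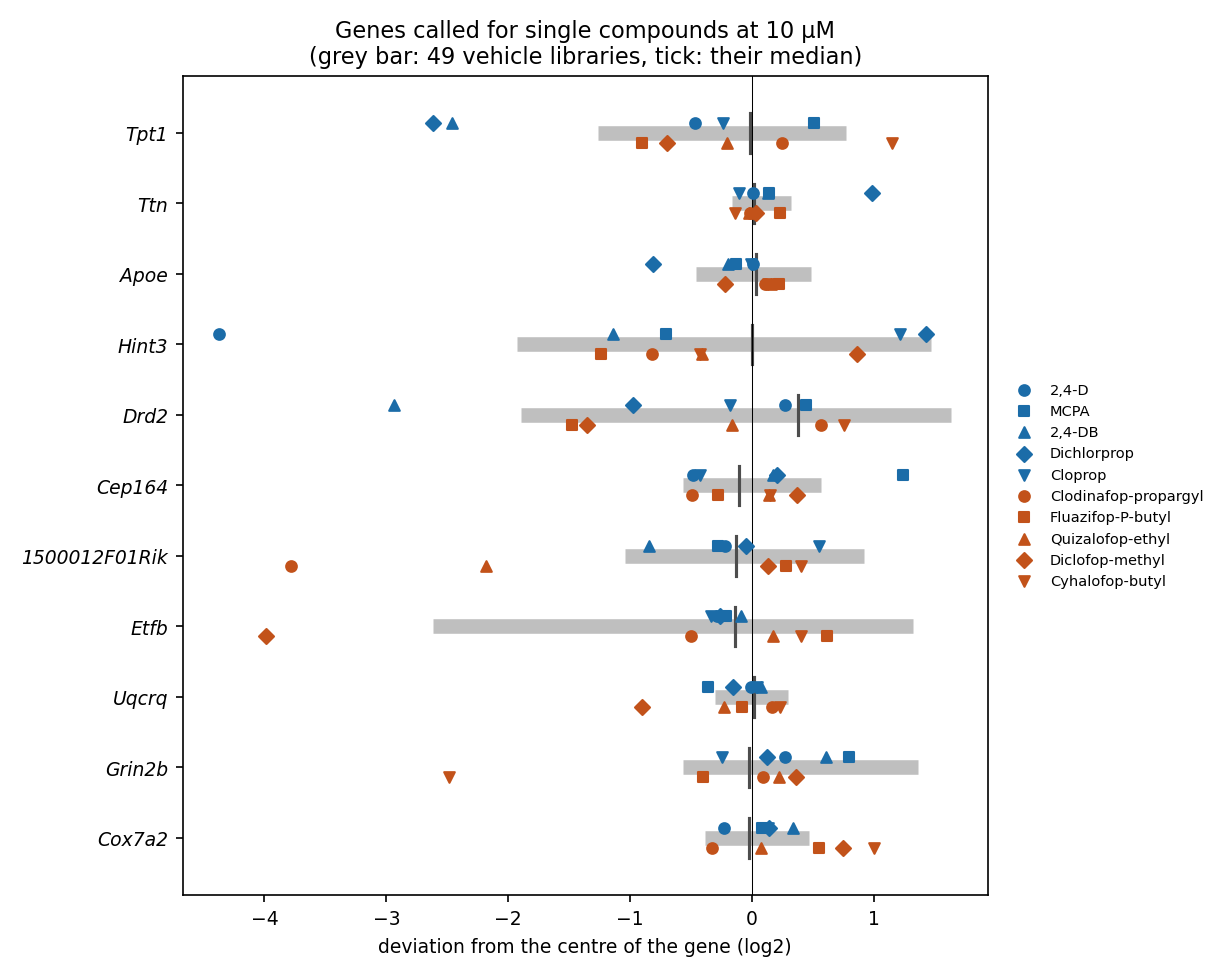
Log2 deviation of each gene from its centre (horizontal axis) for 11 genes called for at least 1 compound, with the 5 phenoxy acids (blue) and the 5 fops (orange) at 10 µM as points and the range and median of 49 vehicle libraries as a grey bar and tick. Each called compound lies outside the bar while most other compounds lie within it, and Tpt1 is the 1 gene with 2 called compounds, 2,4-DB and Dichlorprop.

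Dichlorprop lowered 6 genes and raised 2. Tpt1 had a deviation of −2.61 with Dichlorprop and −2.46 with 2,4-DB, against −1.26 to 0.77 (median −0.02) in vehicle. The other phenoxy acids lay at −0.47 (2,4-D), 0.51 (MCPA) and −0.24 (Cloprop), inside the vehicle range, and the fops between −0.90 and 1.14, of which the last, with Cyhalofop-butyl, was above it. Tpt1 fell by 2.57 ± 0.40 with Dichlorprop (adjusted p = 3.1e-04) and by 2.41 ± 0.40 with 2,4-DB (adjusted p = 0.0024, SE, limma). It was called for 2 of the 281 other chemicals. The level of Tpt1 in the count libraries was 5.65 CPM, and since reads that also match its copies may have been assigned elsewhere, its value is uncertain.

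Ttn, the giant muscle protein titin, rose with Dichlorprop alone among the compounds. Its deviation was 0.99, against −0.17 to 0.32 (median 0.01) in vehicle, and the other compounds at 10 µM lay between −0.14 and 0.23. The difference was 0.95 ± 0.12 (SE; adjusted p = 2.5e-06, limma). Ttn has a longest transcript of 107 kb and a level of 1.13 CPM in the count libraries, and after the trend with transcript length was taken out of each library the difference was 0.25 (adjusted p = 0.977). The tenth of the genes with the longest transcripts had a median length of only 7.93 kb and a median difference of 0.075 with Dichlorprop. At the length of Ttn the fitted trend is thus poorly set and may take up the value of Ttn itself. The part that length had in this call was not tested. Far2, a fatty acyl-CoA reductase, rose by 0.64 ± 0.13 (adjusted p = 0.0208), from a vehicle range of −0.30 to 0.35 to 0.63.

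Apoe, the apolipoprotein that carries lipid between glia and neurons and is made by astrocytes and microglia, also fell with Dichlorprop. Its deviation was −0.82, against −0.46 to 0.48 (median 0.03) in vehicle, and the other 9 compounds at 10 µM lay between −0.22 and 0.22. Apoe fell by 0.85 ± 0.18 (SE; adjusted p = 0.0362, limma), and its level in the count libraries was 176 CPM, so this call does not concern a low gene. With the transcript length trend removed the difference was −0.83 and Apoe was no longer called. In the main test Apoe was called for 5 of the 281 other chemicals.

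Microglial markers were low in the same library. The median over the 7 measured markers was −0.86 relative to the vehicle mean, below the lowest of 49 vehicle libraries (−0.53), with 2 of 7 genes above that mean. C1qa, a complement subunit, lay at −1.60 against −1.39 to 1.46 in vehicle and Cx3cr1, the fractalkine receptor, at −1.12 against −1.30 to 1.18. Csf1r, the receptor that microglia need to survive, lay at 0.44. None of the 7 was called. Microglial markers had the lowest sum of the cell type lists in the count libraries, where Cx3cr1 had a median of 5.65 CPM. Among the 236 other chemicals at 10 µM, 2 had a lower median. Diclofop-methyl was also below the vehicle range (−0.60), and the remaining 8 compounds lay inside it. Fewer cells of a type and less RNA per cell cannot be told apart in such bulk cultures. All 13 neuronal markers lay above the vehicle mean in this library, with a median of 0.18 (highest vehicle 0.25). Of the 10 astrocyte markers 1 lay above that mean, with a median of −0.33 inside the vehicle range (−0.76 to 0.49), and Gfap, the astrocyte filament protein, was at −0.89 (vehicle −1.16 to 0.92). The part that microglia or astrocytes had in the fall of Apoe was not tested.

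Cyhalofop-butyl lowered 121 genes and raised 1. The largest falls were 1700123M08Rik (−4.87), Ect2, a regulator of cell division (−3.60), and 4921504A21Rik (−3.60), all 3 at 1.08 CPM in the count libraries. Cox7a2, a subunit of respiratory complex IV, rose by 0.98 ± 0.22 (SE; adjusted p = 0.0125, limma), from −0.38 to 0.47 in vehicle to a deviation of 1.00. After removal of the trend with transcript length the difference was 0.81 and did not pass (adjusted p = 0.0835). Cox7a2 also lay above the vehicle range, without being called, at 0.55 with Fluazifop-P-butyl and at 0.75 with Diclofop-methyl.

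Grin2b, a subunit of the NMDA receptor, fell with Cyhalofop-butyl. Its deviation was −2.49, against −0.56 to 1.36 (median −0.02) in vehicle and −0.40 to 0.79 in the other 9 compounds at 10 µM. The difference was −2.55 ± 0.39 (SE; adjusted p = 6.7e-05, limma), and −2.36 after removal of the length trend (adjusted p = 6.2e-05). The following were chosen after their values were seen. Ube3a, the ubiquitin ligase of Angelman syndrome, fell by 1.19 ± 0.20 (adjusted p = 3.2e-04; −1.10 and 2.5e-04 without the length trend). Kcnb2, a voltage-gated potassium channel, fell by 0.97 ± 0.19 (adjusted p = 0.0016; −0.94 and 0.0033 without the length trend) and was called for 17 of the 281 other chemicals. Atrx, Nipbl, Kmt2c and Ash1l had differences of −0.63, −0.63, −0.83 and −0.62 (adjusted p = 0.0050 to 0.0357). Without the length trend these were −0.34, −0.39, −0.34 and −0.29, and none of the 4 passed (adjusted p = 0.258 to 0.679).

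Xist and Tsix, the overlapping antisense RNAs of the X inactivation centre, were both called. Tsix had a deviation of −3.67, against −0.92 to 0.65 in vehicle, and fell by 3.59 ± 0.43 (SE; adjusted p = 4.0e-07, limma). Xist had a deviation of −1.48, against −0.84 to 0.43, and fell by 1.34 ± 0.32 (adjusted p = 0.0206). Without the length trend Tsix still passed (−3.55, adjusted p = 3.0e-07) and Xist did not (−0.84, adjusted p = 0.355). Tsix lies on chromosome X from 100626856 to 100680296 on the plus strand and Xist from 100655714 to 100678556 on the minus strand (mm9). Strand is not stated for the counting, so reads of the 2 genes cannot be told apart.

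The genes that fell had long transcripts. The longest transcript of the 117 fallen genes with a model in mm9 had a median of 5.18 kb against 3.25 kb over all genes, and the gene body 73.8 kb against 24.7 kb. Of these 117, 92 had a transcript over the median of all genes. Over 13003 genes the deviation of Cyhalofop-butyl had a Spearman correlation of −0.373 with transcript length. The 10 other compounds lay between −0.156 (Cloprop) and 0.225 (MCPA), the vehicle libraries between −0.209 and 0.335, and 5 of 271 other chemicals were lower than Cyhalofop-butyl. These correlations are across genes of 1 library, which share its RNA and depth. When the genes were split by length into 10 bins, the median difference was 0.156 in the bin of the shortest transcripts and −0.214 in that of the longest, both outside the vehicle range.

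Taking the trend with transcript length out of every library left 60 called genes for Cyhalofop-butyl, of which 57 were among the 122. This alternative was chosen after the data were seen.

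**Figure D3:**
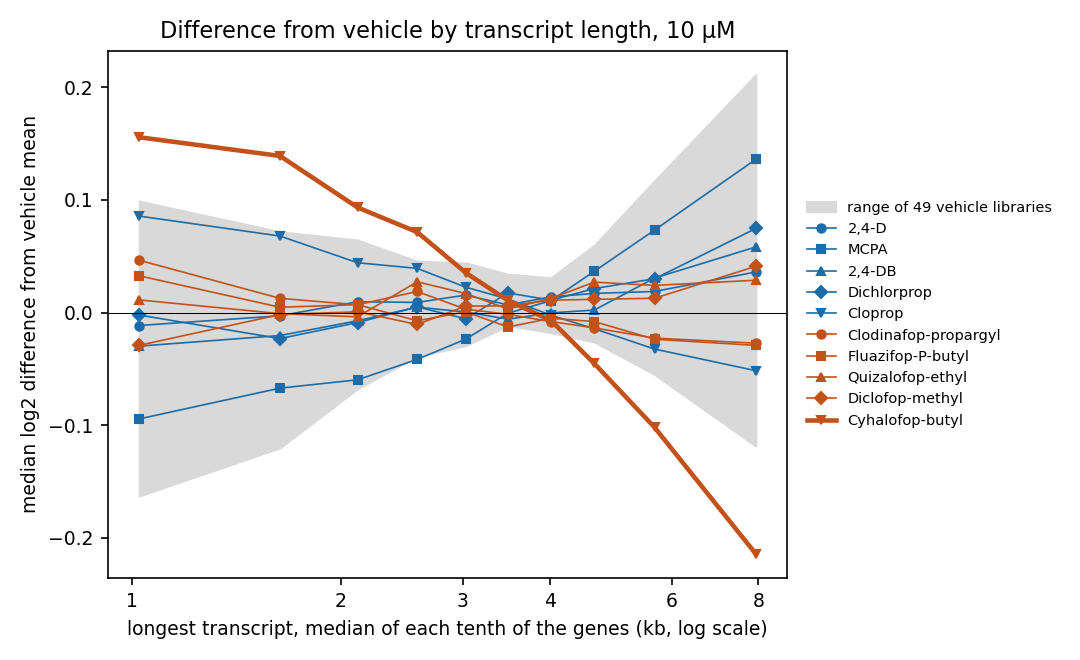
Median log2 difference from the vehicle mean (vertical axis) in 10 bins of the genes ordered by the longest transcript (horizontal axis, kb, log scale) for the 10 compounds at 10 µM, with the range of 49 vehicle libraries in grey. The line of Cyhalofop-butyl falls from 0.156 to −0.214 and leaves the grey range at both ends, while the other 9 lines stay inside it except for 1 middle bin each of MCPA and Fluazifop-P-butyl.

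The 121 genes were not low with the other compounds. Their median difference from vehicle was −1.08 with Cyhalofop-butyl, by which they were chosen, and between −0.16 and 0.23 with the other 10, inside the vehicle range of −0.21 to 0.37. Over the 296 other chemicals the lowest medians were those of Metsulfuron (−0.95), Fosthiazate (−0.83) and Spiroxamine (−0.71), all at 10 µM. Metsulfuron and Fosthiazate were also the chemicals most like Cyhalofop-butyl over the 5121 most variable genes (Spearman 0.258 and 0.223), followed by Azinphos-methyl (0.218). The length trend was not removed for these medians and correlations, and its part in them was not tested.

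Genes that PPAR ligands raise in liver were given first among the pathways. Of 24 such genes 13 were measured. None was called for a class or for any compound. With the phenoxy acids 10 of 13 lay above vehicle and 1 had an unadjusted p under 0.05, with a median of 0.11 against 0.00 over all genes. With the fops 9 of 13 lay above, with a median of 0.10, and over the 236 other chemicals the median of the list was 0.09. Of the 130 values of the list in the 10 compounds at 10 µM, 2.31% lay outside the vehicle range, against the 3.83% over all genes given above.

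Acot2, a mitochondrial thioesterase of long-chain acyl-CoA, had the smallest unadjusted p of the list. Its deviation was −0.27 with 2,4-D, 0.65 with MCPA, 0.98 with 2,4-DB, 0.01 with Dichlorprop and 0.35 with Cloprop, against −1.01 to 1.46 (median −0.22) in vehicle. All 5 lay inside the vehicle range, and the class difference was 0.52 ± 0.19 (SE; unadjusted p = 0.0092, adjusted p = 0.960, limma). With the fops it was 0.08 ± 0.19 (adjusted p = 0.995).

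Plin2, which coats lipid droplets, had deviations of −1.26, −0.44, 0.73, −1.16 and 0.16 with 2,4-D, MCPA, 2,4-DB, Dichlorprop and Cloprop. They were −0.26, −0.10, −0.19, −1.31 and −0.34 with Clodinafop-propargyl, Fluazifop-P-butyl, Quizalofop-ethyl, Diclofop-methyl and Cyhalofop-butyl, against −3.01 to 0.84 in vehicle. No compound left the vehicle range, and the class differences were −0.02 ± 0.39 and −0.07 ± 0.39 (SE).

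Cpt1a, which brings fatty acids into mitochondria, differed from vehicle by −0.19 ± 0.15 with the phenoxy acids and −0.02 ± 0.15 with the fops. For Pdk4, a kinase that restrains pyruvate use, the differences were 0.06 ± 0.32 and 0.04 ± 0.32. Those of Acot1 were 0.11 ± 0.18 and −0.18 ± 0.18, and those of Slc25a20, the carnitine carrier, 0.09 ± 0.12 and 0.18 ± 0.12. The adjusted p of these genes in limma was 0.960 or more in both classes. In the count libraries these genes, Acot2 and Plin2 had median levels of 1.02 CPM (Pdk4) to 7.63 CPM (Slc25a20). Over all genes of the screen the median was 24.4 CPM.

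Cloprop held 12 of the 13 genes above the vehicle mean, with a list median of 0.296 near the top of the vehicle range (−0.258 to 0.319). With the transcript length trend removed it was 0.328, just above that range (highest vehicle 0.316). None of the 13 was called for Cloprop.

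As reference chemicals known to act on PPARs, perfluorooctanoic acid, perfluorooctane sulfonic acid and the phthalate monoester MEHP, all at 10 µM in the same screen, had list medians of 0.121, −0.029 and −0.024. Each of these lay inside the vehicle range too. Plin2 had a deviation of 1.39 with perfluorooctanoic acid, above the highest vehicle library, and was not called.

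Mitochondrial fatty acid oxidation was measured by 16 genes. In the classes 10 of 16 lay above vehicle with the phenoxy acids (median 0.10) and 7 of 16 with the fops (median −0.03), with no gene under an unadjusted p of 0.05 in either. Cyhalofop-butyl was outside the vehicle range, with a median of 0.42 against −0.38 to 0.28, and 12 of 16 genes above. Among them Eci1, an enoyl-CoA isomerase, lay at 1.08, Decr1 at 0.77, Etfa at 0.70 and Cpt1c at 0.60, of which Cpt1c alone was above its vehicle range (highest 0.53). Cpt2 (−0.72) and Acadm (−0.59) lay on the other side. None of the 16 was called for Cyhalofop-butyl. The genes of this list are short, with a median longest transcript of 2.27 kb, and with the length trend removed the median was 0.33, still above the highest vehicle library (0.28). Among the 236 other chemicals, 4 had a median that was not below that of Cyhalofop-butyl.

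With Diclofop-methyl 0 of the 16 genes lay above the vehicle mean, with a median of −0.27, which was inside the vehicle range. Among them was Acads at −1.55 (lowest vehicle −1.26), Acaa2 at −0.87 (lowest −0.84) and Etfb at −3.99. Etfb was the 1 called gene of the 16, where Diclofop-methyl had 2 calls (0.0150%) over all genes. Peroxisomal oxidation, with 12 genes measured, had 5 above vehicle with the phenoxy acids (median −0.03) and 6 with the fops (median 0.02), and no call.

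**Figure D4:**
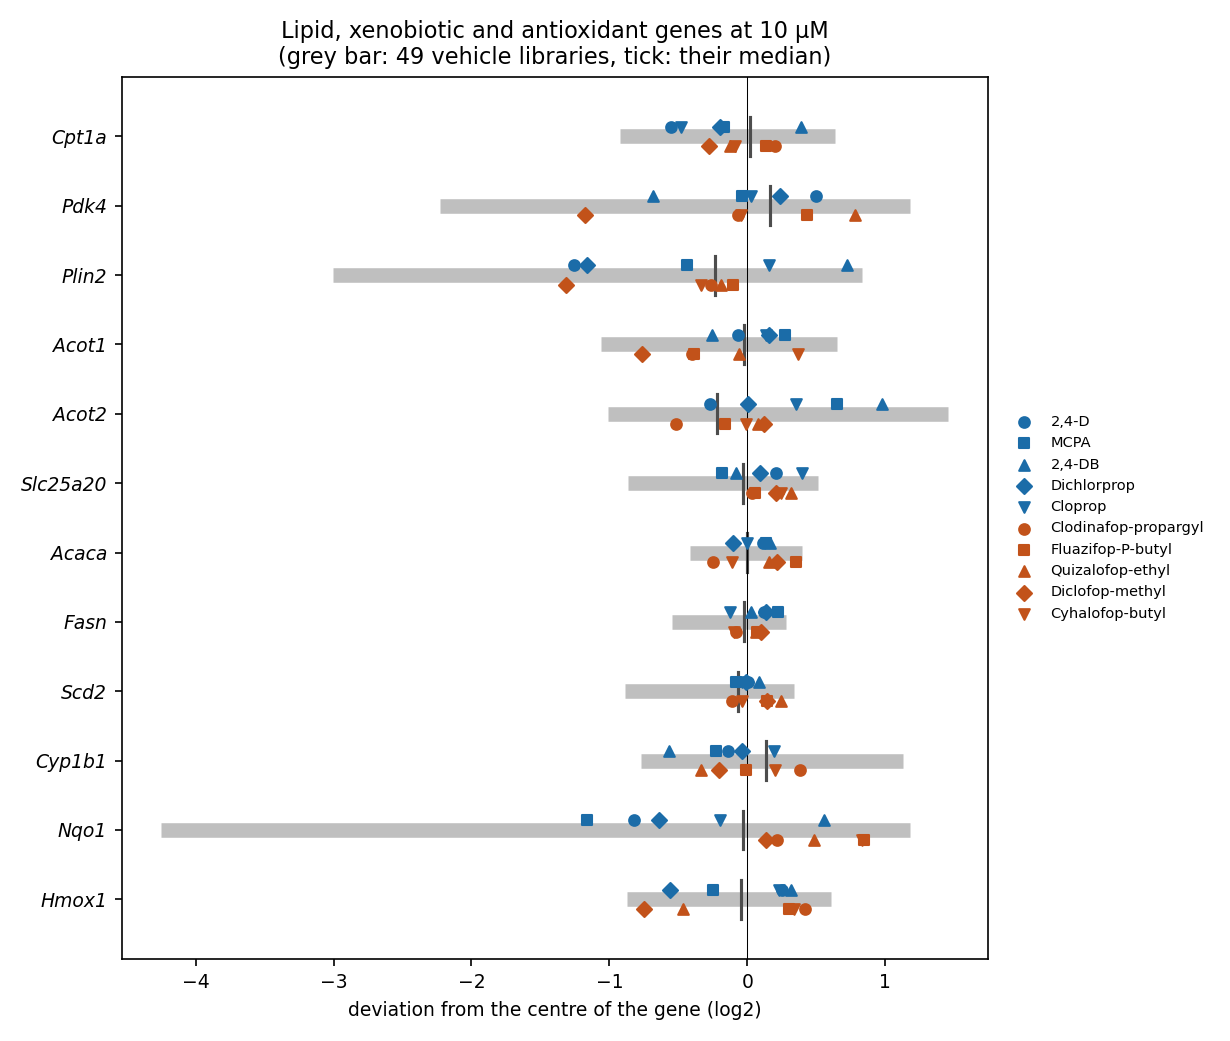
Log2 deviation from the centre of the gene (horizontal axis) of 12 genes of lipid metabolism, xenobiotic and antioxidant response, named whatever their test, for the 5 phenoxy acids (blue) and the 5 fops (orange) at 10 µM, with the range and median of 49 vehicle libraries as a grey bar and tick. No point leaves its bar.

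Acetyl-CoA carboxylase, the plant target of the fops, is encoded by Acaca in its cytosolic form. The deviation of Acaca was −0.25 with Clodinafop-propargyl, 0.35 with Fluazifop-P-butyl, 0.16 with Quizalofop-ethyl, 0.21 with Diclofop-methyl and −0.11 with Cyhalofop-butyl, against −0.42 to 0.40 in vehicle. All lay inside the vehicle range, with a class difference of 0.08 ± 0.09 (SE; 95% interval −0.09 to 0.26, adjusted p = 0.995, limma). Acacb, the mitochondrial form, was not in the table of the screen.

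Of the 19 measured genes of fatty acid synthesis around it, 15 lay above vehicle with the fops (median 0.09, 3 under an unadjusted p of 0.05) and 16 with the phenoxy acids (median 0.05, 1 under it). The median over the other chemicals was 0.07, and none of the 19 was called in any comparison. Fasn, the fatty acid synthase, differed by 0.02 ± 0.07 with the fops and 0.09 ± 0.07 with the phenoxy acids, and Scd2, the main brain desaturase, by 0.14 ± 0.08 and 0.06 ± 0.08. Diclofop-methyl had a list median of 0.223, above the highest vehicle library (0.164), with 16 of 19 genes above. There Acly, which makes cytosolic acetyl-CoA, lay at 0.46 and Lpin1, a phosphatidate phosphatase, at 0.44 (highest vehicle 0.31). After removal of the length trend it was 0.202, with a highest vehicle library of 0.187.

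Cholesterol synthesis genes lay slightly above vehicle as a group. All 23 measured genes had a positive difference with the fops, with a median of 0.13 and 4 under an unadjusted p of 0.05, and 21 of 23 with the phenoxy acids, with a median of 0.10 and 2 under it. None was called. The background was alike: the median of the list over the 236 other chemicals at 10 µM was 0.10, close to the values of both classes.

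Compounds varied more than classes in these genes. Diclofop-methyl had a list median of 0.39, higher than in 48 of 49 vehicle libraries, with Sqle, the squalene epoxidase, at 0.43 (highest vehicle 0.40) and Srebf2, the transcription factor of the pathway, at 0.26 (highest 0.17). Clodinafop-propargyl was lower than the vehicle mean in 20 of 23 genes, with a median of −0.12 and Dhcr7 at −0.52 (lowest vehicle −0.44). The genes of the list are not independent of each other, and the median over vehicle libraries ran from −0.36 to 0.56.

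Lipid efflux genes, 6 measured, were below vehicle in 5 cases with the phenoxy acids (median −0.20, 3 under an unadjusted p of 0.05) and in 3 with the fops (median −0.02). No gene of the list was called in a class, and Apoe with Dichlorprop was its call among the compounds.

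No gene of the xenobiotic response was called. Cyp1b1, a target of the aryl hydrocarbon receptor, differed by −0.28 ± 0.14 with the phenoxy acids (unadjusted p = 0.0479, adjusted p = 0.960) and −0.12 ± 0.14 with the fops (SE, limma). Of the 10 measured genes 5 lay above vehicle with the phenoxy acids (median −0.07) and 4 with the fops (median −0.09), and none was called.

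Nqo1, a quinone reductase of the NRF2 response, had deviations of −0.82, −1.16, 0.56, −0.64 and −0.20 with 2,4-D, MCPA, 2,4-DB, Dichlorprop and Cloprop. They were 0.22, 0.84, 0.48, 0.14 and 0.83 with Clodinafop-propargyl, Fluazifop-P-butyl, Quizalofop-ethyl, Diclofop-methyl and Cyhalofop-butyl, against −4.25 to 1.18 (median −0.03) in vehicle. All 5 fops lay above the vehicle median, but 2,4-DB overlapped them, and the difference of the fops from vehicle was 0.73 ± 0.38 (SE; unadjusted p = 0.0592, adjusted p = 0.995, limma). The classes differed by −0.96 ± 0.51 (adjusted p = 0.925). The level of Nqo1 in the count libraries was low, with a median of 1.27 CPM. Over the 22 genes of the NRF2 list 11 lay above vehicle with the phenoxy acids (median −0.01) and 15 with the fops (median 0.04), and Hmox1, the heme oxygenase, differed by 0.06 ± 0.16 and 0.03 ± 0.16.

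**Figure D5:**
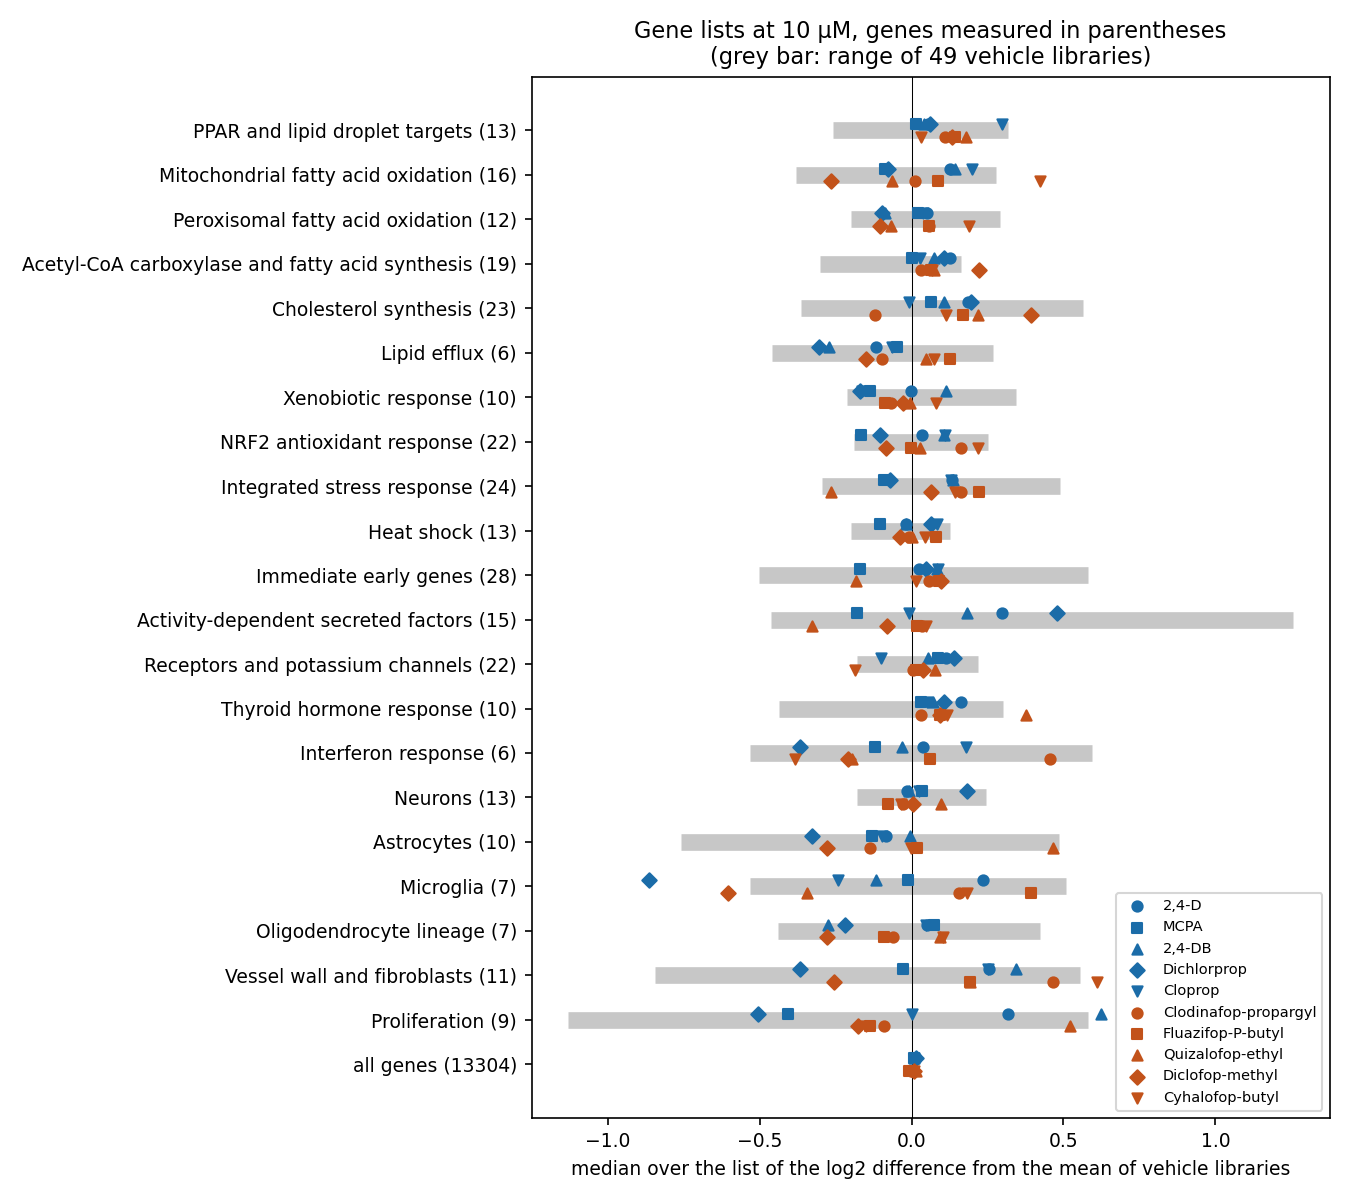
Median over each gene list of the log2 difference from the mean of vehicle libraries (horizontal axis) for the 5 phenoxy acids (blue) and the 5 fops (orange) at 10 µM, with the range of the same median over 49 vehicle libraries as a grey bar. Points outside their bar are Cyhalofop-butyl for mitochondrial fatty acid oxidation, receptors and vessel wall, Diclofop-methyl for fatty acid synthesis and microglia, Dichlorprop for microglia, Quizalofop-ethyl for thyroid hormone response and 2,4-DB for proliferation. With 21 lists and 10 compounds, some medians can leave the range of 49 libraries without an effect. Of single values over all genes 3.83% lay outside their vehicle range.

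For both lists of neuronal activity the median stayed inside the vehicle range with each of the 10 compounds. Of 28 immediate early genes 15 lay above vehicle with the phenoxy acids (median 0.05) and 17 with the fops (median 0.03), and none was called. Fos differed by 0.26 ± 0.30 and 0.15 ± 0.30, Npas4 by 0.09 ± 0.28 and −0.27 ± 0.28, and Bdnf, the growth factor released on activity, by 0.05 ± 0.22 and −0.22 ± 0.22 (SE, phenoxy acids first). The vehicle range of these genes was wide, with 1.71 below to 2.52 above the centre for Fos, and the 95% interval of its difference with the phenoxy acids was −0.34 to 0.87.

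The second list held 15 secreted factors that depend on activity, all measured. With the phenoxy acids 13 of 15 lay above vehicle (median 0.12, 1 under an unadjusted p of 0.05), and with the fops 6 of 15 (median −0.09). Between the classes 13 of 15 were higher with the phenoxy acids, with a median difference of 0.21 against 0.00 over all genes and 1 gene under an unadjusted p of 0.05, and none was called in any of these comparisons. The compounds ran from −0.33 with Quizalofop-ethyl to 0.48 with Dichlorprop, in which all 15 lay above the vehicle mean, against −0.46 to 1.26 in vehicle. MCPA, at −0.18, and Cloprop, at −0.01, did not share the direction of the class.

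Receptor and potassium channel genes differed by compound. Between the classes 21 of 22 genes were higher with the phenoxy acids than with the fops, with a median difference of 0.10, 2 genes under an unadjusted p of 0.05 and none called. Over all genes 6735 of 13304 were higher with the phenoxy acids. The count of the list was not taken without Cyhalofop-butyl or without the length trend. Cyhalofop-butyl alone was outside the vehicle range, with a median of −0.186 against −0.179 to 0.219, and Grin2b and Kcnb2 were its 2 called genes of the 22, where 122 (0.917%) were called over all genes. Gria2, a subunit of the AMPA receptor, lay at −0.38 with Cyhalofop-butyl (lowest vehicle −0.25). With the length trend removed the list median was −0.106 and inside the vehicle range. Kcnb2 lay above the vehicle range with Quizalofop-ethyl (0.61, highest vehicle 0.56) and was not called there.

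With Quizalofop-ethyl 8 of 10 genes of the thyroid hormone list lay above the vehicle mean, and the median was 0.377. This was above the highest vehicle library (0.302) and above all 236 other chemicals at 10 µM. Thrb, a thyroid hormone receptor, lay at 0.47 (highest vehicle 0.40) and Dio2, which activates the hormone, at 0.39 (highest 0.55). Klf9, a direct target in neurons, lay at −0.29. None of the 10 was called. Without the length trend the median was 0.359 (highest vehicle 0.299). Astrocyte markers were high in the same library, with 9 of 10 above the vehicle mean and a median of 0.46, inside the vehicle range (−0.76 to 0.49) and above 235 of the 236 other chemicals. Gfap lay at 0.69. The part that astrocytes had in the thyroid hormone list was not tested. Dio2 was below its vehicle range with 2,4-D (−1.10, lowest vehicle −0.62).

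Proliferation genes, which mark dividing cells in cultures treated to stop division, were highest with 2,4-DB. The median over 9 genes was 0.624, above the highest vehicle library (0.580) and all 236 other chemicals, with Ccnb1 at 1.46, Cdk1 at 1.28 and Mki67 at 0.73 (highest vehicle 0.68). After removal of the length trend it was 0.559, inside the vehicle range. Quizalofop-ethyl had a median of 0.521, with Mki67 at 0.72. None of these genes was called.

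Stress lists held no called gene. In the integrated stress response, by which cells slow translation, 16 of 24 genes lay above vehicle in each class (medians 0.07 and 0.05, phenoxy acids first). The compounds ran from −0.26 to 0.22, inside the vehicle range of −0.29 to 0.49. The lowest was Quizalofop-ethyl, with 3 of 24 genes above the vehicle mean and a median lower than that of all 236 other chemicals. Of 13 heat shock genes 9 and 7 lay above vehicle (medians 0.01 and 0.03), and the compounds lay between −0.10 and 0.08 (vehicle −0.20 to 0.13).

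Of 14 interferon response genes 6 were measured, and 3 of them lay above vehicle in each class (medians −0.01 and −0.10). The median was −0.38 to 0.46 over the compounds and −0.53 to 0.59 over vehicle libraries. Of the 60 values of single genes 6 lay outside the vehicle range (10.0%, against 3.83% over all genes). Stat2, a transcription factor of the response, was above its vehicle range with Diclofop-methyl (0.47, highest vehicle 0.24). Ifi27 lay at −4.42 with MCPA (lowest vehicle −3.88) and at 1.99 with Clodinafop-propargyl (highest 1.52). Without the length trend the median of Cyhalofop-butyl, over the 5 genes with a length, was −0.728 and below the vehicle range (lowest −0.545). None of the 6 genes was called.

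Markers of vessel wall and fibroblasts were above the vehicle range with Cyhalofop-butyl (median 0.610, highest vehicle 0.555), with 10 of 11 genes above and Col1a2 at 1.18 (highest vehicle 1.14). After removal of the length trend it was 0.534, inside the range. Acta2, smooth muscle actin, differed by −0.04 ± 0.29 with the phenoxy acids and 0.36 ± 0.29 with the fops. The median of neuronal markers stayed between −0.08 and 0.18 over the 10 compounds, inside the vehicle range. Astrocyte markers lay above vehicle in 2 of 10 cases with the phenoxy acids (median −0.13) and in 6 with the fops (median 0.02). Of the 7 measured oligodendrocyte lineage markers 3 lay above vehicle in each class (medians −0.00 and −0.08), with compounds between −0.28 and 0.10 (vehicle −0.44 to 0.42).

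A set of 10 pairs of compounds was compared at 10 µM, with p-values adjusted over all genes and pairs. Each pair differs by a named change in structure, which is not always the only change. Diclofop-methyl, for instance, is an ester and Dichlorprop an acid. Of 133040 comparisons 16 passed (0.0120%). The 95% interval of a difference between 2 lone libraries reached a median of 0.71 on either side on the log2 scale. This interval is not adjusted for the number of tests. For a gene of median spread, a difference well above 0.71 was needed to pass the adjustment over all genes and pairs. The root mean square difference within a pair was 0.52 to 0.58 over the genes, inside the range of 0.35 to 0.73 of the 1176 pairs of vehicle libraries.

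A chlorine in place of the methyl group on the ring separates 2,4-D from MCPA. 1 gene passed between them: Myt1, a zinc finger factor of neurons and oligodendrocytes, lay at −0.80 with 2,4-D and 0.93 with MCPA, a difference of −1.73 ± 0.32 (SE; adjusted p = 0.021 over all pairs, limma). An acetic in place of a butyric side chain separates 2,4-D from 2,4-DB, and no gene passed there, with a smallest adjusted p of 0.0748 and 3.62% of genes under an unadjusted p of 0.05. The intervals were wide: for Plin2 (−1.26 and 0.73) the difference was −1.98 with a 95% interval of −4.30 to 0.33, and for Acot2 −1.25 with −2.41 to −0.09 (unadjusted p = 0.0359, adjusted p = 1.00). For Fasn it was 0.10 with −0.36 to 0.55.

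A propionic in place of an acetic chain separates Dichlorprop from 2,4-D, and 2 genes passed, both higher with Dichlorprop. Hint3 lay at −4.37 with 2,4-D and 1.43 with Dichlorprop (difference −5.80 ± 0.97, adjusted p = 0.0084), and Ttn at 0.01 and 0.99 (difference −0.98 ± 0.17, adjusted p = 0.0084, limma). Ttn was also higher with Dichlorprop than with Cloprop, which has 1 chlorine fewer (1.10 ± 0.17, adjusted p = 0.0019), than with 2,4-DB (−0.86 ± 0.17 for 2,4-DB minus Dichlorprop, adjusted p = 0.0427), and than with Diclofop-methyl, in which a second ring lies between the dichlorinated ring and the chain (−0.95 ± 0.17 for Diclofop-methyl minus Dichlorprop, adjusted p = 0.0111). In the last and in the comparison with Cloprop it was the 1 gene that passed. 1700016K19Rik was lower with Dichlorprop (−3.32) than with 2,4-DB (0.74; adjusted p = 0.0281). After removal of the length trend 0 genes passed between Dichlorprop and Cloprop and between Dichlorprop and Diclofop-methyl. For Ttn this removal has the limit given with its call, so it does not settle these pairs.

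Among the fops, Diclofop-methyl and Cyhalofop-butyl differ in the substituents of the outer ring and in the ester, and 7 genes passed, 6 of them lower with Cyhalofop-butyl. Tsix lay at 0.32 and −3.67 (difference 3.98 ± 0.60, adjusted p = 0.0019), Grin2b at 0.36 and −2.49 (2.84 ± 0.54, adjusted p = 0.0308), and Uqcrq at −0.90 and 0.23 (−1.13 ± 0.19, adjusted p = 0.0084, SE, limma). The others were Uhmk1, 1700020I14Rik, Klhl11 and Ksr2, with differences of 1.41 to 1.73.

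Clodinafop-propargyl and Fluazifop-P-butyl, which differ in the pyridine ring and the ester, differed in 1500012F01Rik (−3.79 and 0.28, adjusted p = 0.0084). Fluazifop-P-butyl and Quizalofop-ethyl, which has a quinoxaline in place of the pyridine, differed in Rell1 (0.94 and −1.10, difference 2.04 ± 0.38, adjusted p = 0.0281). Between Clodinafop-propargyl and Quizalofop-ethyl no gene passed (smallest adjusted p = 0.0953, 5.42% of genes under an unadjusted p of 0.05). There the difference of Acaca was −0.40 with a 95% interval of −0.92 to 0.12. A p that misses the threshold in these pairs does not show that the compounds act alike.

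Fluazifop-butyl and Fluazifop-P-butyl, of which the second is the single active mirror form of the first, were used at 0.1 µM and 10 µM and are given side by side without a comparison. Fluazifop-butyl lowered 4 genes: Ube2s, an enzyme of the anaphase-promoting complex (−4.11), Hilpda, a lipid droplet protein induced by hypoxia (−2.74 ± 0.42, adjusted p = 4.2e-04), Ankzf1 (−1.14) and Zfp287 (−0.86, limma). In the count libraries Ube2s (1.98 CPM) and Hilpda (5.93 CPM) had low median levels, with Ankzf1 at 21.45 CPM and Zfp287 at 30.23 CPM. The median over all genes of the screen was 24.4 CPM. Hilpda had a deviation of −2.79 with Fluazifop-butyl and 0.32 with Fluazifop-P-butyl, against −1.45 to 0.71 in vehicle. Mir6369, the gene lowered by Fluazifop-P-butyl, lay at −4.07 with it and at 0.26 with Fluazifop-butyl. The cholesterol list had a median of −0.183 with Fluazifop-butyl and 0.170 with Fluazifop-P-butyl, both inside the vehicle range.

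Correlations between the compounds across genes were near 0. Over the 5121 most variable genes the Spearman correlation of deviations had a median of 0.006 over the 10 pairs of phenoxy acids (−0.078 to 0.142), of −0.002 over the 10 pairs of fops (−0.146 to 0.070) and of 0.015 over the 25 pairs across the classes. Pairs of the 236 other chemicals had a median of 0.007, with 5% below −0.053 and 5% above 0.059, and pairs of vehicle libraries 0.022. The highest value among the phenoxy acids, 0.142, was that of MCPA and Dichlorprop, which was also the best match of MCPA among 296 chemicals. For each other compound the best match was a chemical of another kind, with a correlation of 0.06 to 0.26. The 3 best matches of Clodinafop-propargyl were Fenamidone (0.135), Trifloxystrobin (0.135) and Fenpyroximate (0.134). Those of Fluazifop-butyl at 0.1 µM were Fenpyroximate (0.087), Pyraclostrobin (0.081) and Famoxadone (0.076). The study places all of these in the same cluster and describes them as inhibitors of mitochondrial complex I or III. The cause of these matches was not tested. All these correlations are descriptions across genes, which share libraries, cultures and normalization.

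Herbicides of the same plant targets but other structures were used as further comparisons. The 3 cyclohexanediones, which bind the same acetyl-CoA carboxylase, did not differ from the fops in any called gene (0 of 13304, 0%; 682 genes or 5.13% under an unadjusted p of 0.05). The nearest was Dnah5, an axonemal dynein, higher with the fops by 0.97 ± 0.22 (SE; adjusted p = 0.346, limma). The 7 other auxin-type herbicides, with 9 libraries, did not differ from the phenoxy acids in any called gene (0%; 597 genes or 4.49% under it). There Antxr2 came nearest, by −0.86 ± 0.19 (adjusted p = 0.430), with the same phenoxy acid libraries as in the contrast with the fops. With each of 12 compounds left out in turn, it passed only without Cloprop, the only phenoxy acid with a positive deviation (−1.05, adjusted p = 0.0213).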

How the data were processed

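RNA was measured in cultures with 1 library for each of 11 herbicides and 49 vehicle libraries. The authors removed artefact reads (TagDust), used TopHat for alignment (genome build mm9) and counted reads over RefSeq exons joined by gene symbol. For the screen the authors computed RPKM and deposited log10 values after quantile normalization, centring on the median of each gene and batch correction with a mixed model. A filter on level or a pseudocount cannot be applied to such deviations, the depth is unknown, and the labels name no batches. The deposited counts of 3 vehicle libraries gave levels in CPM only, and 11 other per-sample columns and a count table of sulforaphane and fenamidone libraries were not used.

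Values were turned to log2 and fitted in R 4.3.3 with limma 3.58.1 (variance trend, Benjamini-Hochberg adjustment over 13304 genes, threshold 0.05), after the script was tested on simulated data. Because the values are centred on each gene, this trend does not follow the level of a gene. Classes were fitted as groups of compounds. Lone compounds were tested against the spread of vehicle libraries, which the labels do not tie to separate cultures, so p-values measure only the spread between these samples. Pairs were adjusted over all genes and 10 pairs. Lists are described by counts and medians. Members and lists were chosen with earlier results of these data known. Genes were named where a list gene passed in a class, for the 5 largest rises and falls of a class and the 3 largest of a compound, and from a fixed list of 24, of which 21 were measured and some are not reported here. Further genes were named after their values were seen: the remaining called genes, the pair calls, the genes nearest to a threshold, and list members with values outside or near the vehicle range. Gene models and lengths came from the GENCODE annotation of mm9, in which 13003 genes were matched (12388 by the same symbol), in Python 3.11.15. Alternatives were other spreads, gene filters, thresholds, controls and members, compounds left out in turn, and, added after the data were seen, removal of the transcript length trend.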

Additional observations from a re-analysis of the deposited data

Results flagged for a closer look

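In groups of 5 compounds, a value was set apart where its gap to the nearest other compound was over 0.71 of the whole range of the group. This was found in 11 of 80 groups. For independent groups of normally spread values chance alone gives about 1 in 20. The groups here share the same libraries, so their count does not measure an excess over chance. No explanation was tested.

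Among the phenoxy acids, Dichlorprop was apart in Gfap, with a deviation of −0.8935 and the nearest other compound at −0.3145. It was also apart in the median of neuronal markers, at 0.1814 (nearest 0.0359). Cloprop was apart in the median of PPAR and lipid droplet targets, at 0.2963 (nearest 0.0612), and MCPA in that of immediate early genes, at −0.1694 (nearest 0.0239).

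Among the fops at 10 µM, Cyhalofop-butyl was apart with 122 called genes (nearest 4) and in the median of receptors and potassium channels, at −0.1859 (nearest 0.0054). Diclofop-methyl was apart in Plin2, the lipid droplet coat, with a deviation of −1.315 (nearest −0.3374), and in the median of fatty acid synthesis genes, at 0.2234 (nearest 0.0733). Quizalofop-ethyl was apart in 3 list medians. Immediate early genes lay at a median of −0.182 (nearest 0.0162), thyroid hormone response at 0.3773 (nearest 0.1183) and proliferation at 0.5212 (nearest −0.0906).

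In none of 39 genes and lists did every phenoxy acid lie on one side of the vehicle mean and every fop on the other.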

How the results depend on the processing

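The 6 class comparisons gave 0 called genes under every alternative except 5 that left out a compound, where each gave 1: the phenoxy acids (range 0 to 1; Tpt1 without MCPA), phenoxy acids against fops (0 to 1; Antxr2 without Cloprop), fops against cyclohexanediones (0 to 1; Ccdc22 by 2.51 without Tralkoxydim, Dnah5 by 1.17 without Clodinafop-propargyl) and phenoxy acids against auxin-type herbicides (0 to 1; Antxr2 without Cloprop). Calls over the 11 compounds, 167 in all, were 63 at a threshold of 0.01, 111 with variable genes alone and 102 with the length trend removed, an alternative chosen after the data were seen. At 0.01 there were 0 for MCPA, 5 for Dichlorprop, 2 for Cloprop, 0 for Fluazifop-P-butyl, 1 for Diclofop-methyl, 41 for Cyhalofop-butyl and 2 for Fluazifop-butyl. With variable genes alone there were 15 for 2,4-DB, 2 for Fluazifop-P-butyl, 46 for Cyhalofop-butyl and 12 for Fluazifop-butyl. With the spread of repeated chemicals added there were 17 for 2,4-DB, 14 for Cloprop, 7 for Clodinafop-propargyl, 0 for Fluazifop-P-butyl, 10 for Diclofop-methyl and 17 for Fluazifop-butyl. With the length trend removed there were 60 for Cyhalofop-butyl and 0 for Fluazifop-P-butyl, whose gene has no length, and Cox7a2 with Cyhalofop-butyl was 0.81 (adjusted p = 0.0835, limma). Pairs adjusted 1 by 1 gave 41 calls, 30 of them for Diclofop-methyl and Cyhalofop-butyl. After the length correction there was 1 for 2,4-D and Dichlorprop, 0 for Dichlorprop and Cloprop, 1 for 2,4-DB and Dichlorprop and 0 for Diclofop-methyl and Dichlorprop. Ttn had passed in each of these pairs, and its length correction has the limit given with its call. The cause was not tested.

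The direction of 30 values of uncalled genes turned. Against all other chemicals at 10 µM in place of vehicle, the phenoxy acids had Scd2 −0.016, Hmox1 −0.21 and Bdnf −0.036, and the fops Acot2 −0.12, Fasn −0.0043, Cyp1b1 0.016, Hmox1 −0.24, Fos −0.083 and Gfap −0.0092. With Fluazifop-butyl added the fops had Cpt1a 0.056 and Hmox1 −0.023, and with Fenoxaprop-ethyl, a fop outside the name rule, Pdk4 −0.0072 and Plin2 0.043. Leaving out compounds, the phenoxy acids ranged over −0.060 to 0.24 for Pdk4, −0.30 to 0.19 for Plin2, −0.017 to 0.20 for Hmox1, −0.055 to 0.19 for Bdnf and −0.15 to 0.15 for Acta2. The fops ranged over −0.079 to 0.039 for Cpt1a, −0.16 to 0.33 for Pdk4, −0.16 to 0.15 for Plin2, −0.079 to 0.21 for Hmox1 and −0.14 to 0.13 for Gfap. No paired analysis was possible because the screen libraries carry no replicate numbers shared between groups. Depth is unknown, and 1 library per compound limits every call.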
